A study of Homo sapiens with 4 samples.

Results

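The 10 genes described here encode feedback inhibitors of the mitogen-activated protein kinase (MAPK) pathway: the dual-specificity phosphatases DUSP1, DUSP2, DUSP4, DUSP5, DUSP6 and DUSP10, the Sprouty proteins SPRY1, SPRY2 and SPRY4, and the Sprouty-related protein SPRED2. They were taken by name from the deposited table of NB4 cells and make up 10 of its 60662 genes. NB4 is a human M3/APL leukemia cell line that carries PML-RARα, and JMJD3, the product of KDM6B, is a demethylase that removes methyl groups from lysine 27 of histone H3. RNA-seq compared NB4 cells that received the empty control vector (Vector, 2 libraries) with cells that received a lentiviral vector for JMJD3 (JMJD3, 2 libraries), to find the mRNAs that differ when JMJD3 is overexpressed. Both groups were grown in the same medium, and no drug is named in the labels. The labels give neither the time after transduction nor whether the replicates were separate transductions, so that p-values measure only the spread between these libraries, which may be technical. The counts summed to 39078443 and 40768225 in Vector replicates 1 and 2 and to 35176388 and 34704909 in JMJD3 replicates 1 and 2. Vector replicate 1 carries lane label 20 and the other 3 libraries lane label 17.

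Growth factor and cytokine receptors switch on RAS, which starts the kinase cascade of RAF, MEK and ERK, and parallel cascades end in JNK and p38. Active ERK turns on transcription of its own inhibitors: DUSP proteins remove phosphate from the activation loop of MAPKs, while Sprouty and SPRED proteins act further upstream, on the steps from the receptor to RAF. In myeloid cells this pathway carries signals for growth, survival and maturation, and the mRNAs of DUSP and Sprouty genes are often read as a record of recent ERK activity.

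KDM6B, the overexpressed gene, was at 15.8 and 13.7 CPM (counts per 10⁶ counts of the scaled library size) in the Vector libraries and at 37.9 and 44.1 CPM in the JMJD3 libraries. Both JMJD3 libraries were above both Vector libraries, as their labels say. The difference was 2.78-fold, with a log2 fold change of 1.48 (standard error 0.13, in edgeR's quasi-likelihood test, adjusted p = 0.00114). Counts from the native gene and from the vector cannot be told apart. As NB4 cells are promyelocytes, markers of that stage were read first. Their summed level was 8371 and 9361 FPKM (fragments per 10⁶ fragments and per kilobase, a level corrected for length) in the Vector libraries and 4616 and 4576 FPKM in the JMJD3 libraries, with MPO, the myeloperoxidase gene, the most abundant of the 6. Of these markers ELANE, the neutrophil elastase gene, was nearly absent, with 13 and 7 counts against 1 and 2, while CTSG, the cathepsin G gene, went from 231 and 268 FPKM to 17.3 and 15.3 FPKM. CD33, a surface marker in the same list, did not share the fall: it was at 61.7 and 66.4 FPKM in Vector cells and 68.5 and 65.1 FPKM in JMJD3 cells, which overlap. In CPM it was higher by a log2 fold change of 0.29, but it did not pass without JMJD3 replicate 1 (0.25) or 2 (0.32), with the replicate block (0.29), with DESeq2 or its size factors (0.25), with no filter or by limma (0.06). In bulk RNA, fewer cells of a stage and less RNA per cell cannot be told apart. The part of this shift in the results below was not tested. The 4 erythroid markers were at 0 in every library, and the 4 fibroblast markers together held at most 7 counts in a library. Single markers of other lineages also differed: CD2, of T cells, rose from 3.48 and 4.85 CPM to 10.8 CPM in both JMJD3 libraries and CD79A, of B cells, from 7.64 and 8.62 CPM to 15.3 and 13.7 CPM, while the other T cell markers were at no more than 10 counts in any library. EPCAM, of epithelium, fell from 4.53 and 5.29 CPM to 1.22 and 1.16 CPM.

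Of the 10 feedback genes, 5 differed between the groups at an adjusted p under 0.05, against 40.7% of the 15246 genes tested. DUSP6, SPRY4, DUSP4 and SPRY1 were higher in JMJD3 cells, which is 4 genes where 21.6% of all tested genes were higher. DUSP2 was lower, 1 gene where 19.1% of all tested genes were lower. DUSP2 was also the 1 member that changed by at least 2-fold, as 10.4% of all tested genes did at the same adjusted p. The remaining 5, DUSP1, DUSP5, DUSP10, SPRY2 and SPRED2, did not pass. In 7 of the 10 genes the CPM values of the groups did not overlap, 4 with the JMJD3 libraries above and 3 with them below, against 74.4% of all tested genes. The shares of members called and of members not overlapping are thus near those of all genes, and the members are of interest for which of them moved and in which direction. All 10 passed the filter on low counts, and p-values were adjusted by the Benjamini-Hochberg method over all tested genes. The median log2 fold change of the members was -0.09 and that of all tested genes 0.04, while the median size of the change, whatever its sign, was 0.47 for the members and 0.36 for all tested genes.

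**Figure D1:**
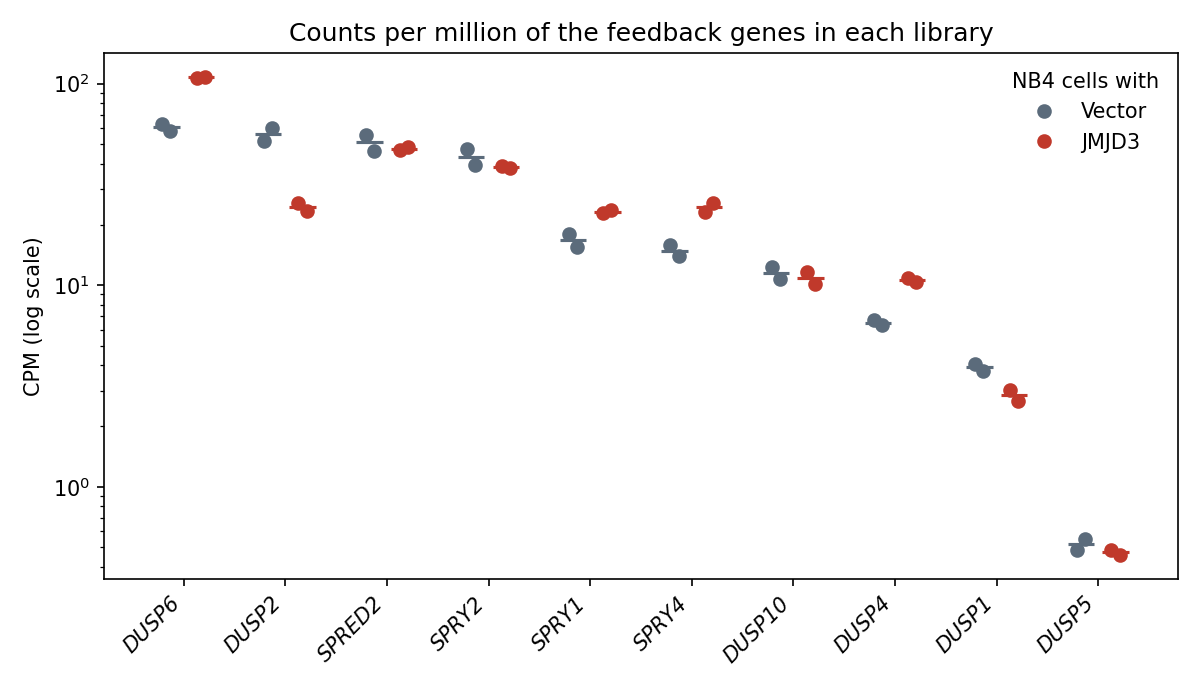
CPM of each feedback gene (log axis) in the 4 libraries, with a point for each library and a line at the mean of the group. The JMJD3 points of DUSP6, SPRY4, DUSP4 and SPRY1 lie above the Vector points, those of DUSP2 (25.7 and 23.4 CPM against 52.1 and 60.3 CPM), DUSP1 and SPRY2 below them.

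To show the sequence next to which these genes start, RefSeq promoter windows of build GRCh38.p14 (250 bases before to 50 after a start) were matched by symbol, which gave 13 windows for 8 of the 10 members. DUSP4 and DUSP5 were not matched. Both strands were searched for the C/EBP motif TTGCNNAA, the cAMP response element TGACGTCA, the AP-1 motif TGANTCA, the ETS motif CCGGAAGT, the E-box CACGTG and the CArG box. The 250 bases before the start are given for genes that rose, DUSP6 (chr12:89352502-89352751, minus strand) and SPRY1 (chr4:123396545-123396794, plus strand). They are also given for DUSP2 (chr2:96145441-96145690, minus strand), which was lower, and for DUSP1 (chr5:172771196-172771445, minus strand), which did not pass. Each stretch lies just outside its RefSeq gene, and capitals mark a motif match.
DUSP6: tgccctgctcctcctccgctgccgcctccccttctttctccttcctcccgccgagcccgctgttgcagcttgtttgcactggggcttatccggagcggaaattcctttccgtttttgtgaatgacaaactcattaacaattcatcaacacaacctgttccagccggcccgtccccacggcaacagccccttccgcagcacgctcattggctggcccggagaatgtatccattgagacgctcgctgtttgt
SPRY1: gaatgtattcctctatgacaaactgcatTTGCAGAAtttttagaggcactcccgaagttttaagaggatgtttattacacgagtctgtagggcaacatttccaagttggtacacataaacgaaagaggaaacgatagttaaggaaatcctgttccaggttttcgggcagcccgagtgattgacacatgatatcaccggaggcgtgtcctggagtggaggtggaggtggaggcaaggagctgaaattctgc
DUSP2: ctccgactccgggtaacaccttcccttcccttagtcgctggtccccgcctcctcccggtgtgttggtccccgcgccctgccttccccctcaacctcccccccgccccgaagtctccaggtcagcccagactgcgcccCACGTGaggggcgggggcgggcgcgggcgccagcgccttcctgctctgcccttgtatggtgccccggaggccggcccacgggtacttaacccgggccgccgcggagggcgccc
DUSP1: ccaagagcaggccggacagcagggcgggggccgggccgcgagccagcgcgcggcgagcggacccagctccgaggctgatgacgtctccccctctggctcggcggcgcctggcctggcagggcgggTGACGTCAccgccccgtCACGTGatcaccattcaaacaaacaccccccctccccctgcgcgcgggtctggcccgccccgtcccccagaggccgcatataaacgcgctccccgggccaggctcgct
DUSP2 and DUSP1 each hold the E-box CACGTG, which starts 113 and 108 bases before the start. DUSP1 also holds the full cAMP response element, 125 bases before the start. SPRY1 holds 1 match to the C/EBP motif, TTGCAGAA, 222 bases before the start, in 1 of its 2 windows. No match to any of the motifs was found in the windows of DUSP6, SPRY4, SPRY2 and DUSP10, and 1 of the 2 windows of SPRED2 holds the AP-1 motif at 2 places, which do not overlap. Over all 35116 windows of the same length, 7.26% hold the E-box, 1.85% the cAMP response element, 10.5% the C/EBP motif, 7.71% the AP-1 motif, 4.14% the ETS motif and 1.29% the CArG box. A match describes letters and is neither a site nor a cause. By base composition, the windows of DUSP2 and DUSP1 are 75.0% and 73.3% G and C, that of DUSP6 58.3% and the SPRY1 window given here 47.7%, where the median of all windows is 58.7%. The other SPRY1 window is at 69.3% and that of SPRY4, which also rose, at 65%. Those of SPRY2, which did not pass, range from 44.7% to 71%.

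Among the inducible phosphatases of the nucleus, DUSP2 (ENSG00000158050, chr2:96143169-96145440), which is typical of blood cells and acts on ERK and p38, was at 52.1 and 60.3 CPM in the Vector libraries and at 25.7 and 23.4 CPM in the JMJD3 libraries. Every JMJD3 value was below every Vector value, by more than the replicates of either group were apart. DUSP2 changed by a log2 fold change of -1.20 (standard error 0.12, in edgeR's quasi-likelihood test, adjusted p = 0.00146), from 56.2 ± 5.79 to 24.5 ± 1.60 CPM (mean ± SD, n = 2). Within the 3 libraries of lane label 17, the log2 fold change of DUSP2 was -1.34. DUSP1 (ENSG00000120129), an immediate early gene whose protein acts on p38, JNK and ERK, had 4.07 and 3.77 CPM in Vector cells and 3.02 and 2.67 CPM in JMJD3 cells. Here too the groups did not overlap, but with 99 to 151 counts in a library the difference did not pass the test. Its log2 fold change was -0.46 with a standard error of 0.16 (in edgeR's quasi-likelihood test, adjusted p = 0.0568). With the size factors of DESeq2 in place of TMM it passed narrowly (adjusted p = 0.0452 from edgeR). It did not pass in 11 of 13 alternative fits, among them the Wald test of DESeq2 itself (adjusted p = 0.177).

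DUSP4 (ENSG00000120875), a nuclear phosphatase for ERK and JNK that is close to DUSP1 in structure, moved the other way. It was at 6.69 and 6.34 CPM in the Vector libraries and at 10.8 and 10.4 CPM in the JMJD3 libraries. The replicates lay close together and the groups far apart. The log2 fold change of DUSP4 was 0.71 (standard error 0.12, in edgeR's quasi-likelihood test, adjusted p = 0.00564), a change of 1.63-fold. On the FPKM scale it depended on the pseudocount, with 0.41 by limma on log2(FPKM + 1) and 0.62 on log2(FPKM + 0.1), where it no longer passed (adjusted p = 0.0673 by limma). DUSP5 (ENSG00000138166), the nuclear phosphatase selective for ERK, was hardly detected, at 18 and 21 counts in Vector cells and 18 and 17 counts in JMJD3 cells. The groups shared the value of 18 counts. At this depth a moderate change of DUSP5 was not detectable, and its log2 fold change of -0.13 had a standard error of 0.32.

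DUSP6 (ENSG00000139318, chr12:89347235-89352501), the cytoplasmic phosphatase selective for ERK and a common readout of ERK activity, was at 63.4 and 58.1 CPM in Vector cells. In JMJD3 cells it was at 107 and 108 CPM, the highest CPM of the 10 genes. The groups were separated by far more than their replicates. The log2 fold change of DUSP6 was 0.82 (standard error 0.09, in edgeR's quasi-likelihood test, adjusted p = 0.00183), or 1.77-fold, with 60.7 ± 3.79 and 107 ± 0.939 CPM as the group means (± SD, n = 2). In the GENCODE annotation 28.6% of the exon bases of DUSP6 are shared with exons of a gene on the opposite strand (ENSG00000274021). Because the library kit named does not mark strand, reads from DUSP6 and from ENSG00000274021 in the shared stretch cannot be told apart. ENSG00000274021, which was looked up after the values were seen, had 218 and 194 counts in Vector cells and 514 and 489 counts in JMJD3 cells, where DUSP6 had 2351 and 2216 counts against 3951 and 4000 counts. Its difference was 2.47-fold. How much of the rise of DUSP6 lies in shared reads was not tested.

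DUSP10 (ENSG00000143507), whose protein prefers JNK and p38 to ERK, had 12.3 and 10.7 CPM in Vector cells and 11.6 and 10.1 CPM in JMJD3 cells. These ranges overlapped. Its log2 fold change of -0.08 had a standard error of 0.13, and it was 0.01 without JMJD3 replicate 2.

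Of the Sprouty genes, SPRY4 (ENSG00000187678, chr5:142310430-142325021), an inhibitor that blocks growth factor signals on their way to ERK, was at 15.8 and 13.9 CPM in Vector cells and at 23.2 and 25.7 CPM in JMJD3 cells. Both JMJD3 libraries were above both Vector libraries. SPRY4 rose by 1.65-fold, a log2 fold change of 0.72 (standard error 0.12, in edgeR's quasi-likelihood test, adjusted p = 0.00526). SPRY1 (ENSG00000164056, chr4:123396795-123403760), which restrains receptor tyrosine kinase signals, had 18.0 and 15.4 CPM in Vector cells and 22.7 and 23.6 CPM in JMJD3 cells. The groups did not overlap, though the gap was narrower than for SPRY4. The log2 fold change of SPRY1 was 0.47 (standard error 0.12, in edgeR's quasi-likelihood test, adjusted p = 0.0192). It did not pass without JMJD3 replicate 1 (0.50, adjusted p = 0.0943 from edgeR), without JMJD3 replicate 2 (0.445, adjusted p = 0.157 from edgeR) or with no filter on low counts (adjusted p = 0.0645 from edgeR).

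SPRY2 (ENSG00000136158), the Sprouty protein that binds the ubiquitin ligase CBL, was at 47.4 and 39.4 CPM in Vector cells and at 39.1 and 38.3 CPM in JMJD3 cells. The JMJD3 values lay just below the lower Vector value, so that Vector replicate 1 alone set the difference. Its log2 fold change was -0.17 (in edgeR's quasi-likelihood test, adjusted p = 0.297), it was -0.06 without Vector replicate 1, and it passed without Vector replicate 2 (-0.29, adjusted p = 0.0213 from edgeR). SPRED2 (ENSG00000198369), which recruits the RAS inactivator neurofibromin to the membrane, had 55.8 and 46.3 CPM in Vector cells and 46.7 and 48.5 CPM in JMJD3 cells. Here the JMJD3 libraries lay between the Vector libraries. The log2 fold change of SPRED2 was -0.10 (in edgeR's quasi-likelihood test, adjusted p = 0.515). It was 0.00 without Vector replicate 1 and -0.23 without Vector replicate 2, where it passed (adjusted p = 0.0438 from edgeR). Whether the changes of the Sprouty genes differ from each other was not tested.

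**Figure D2:**
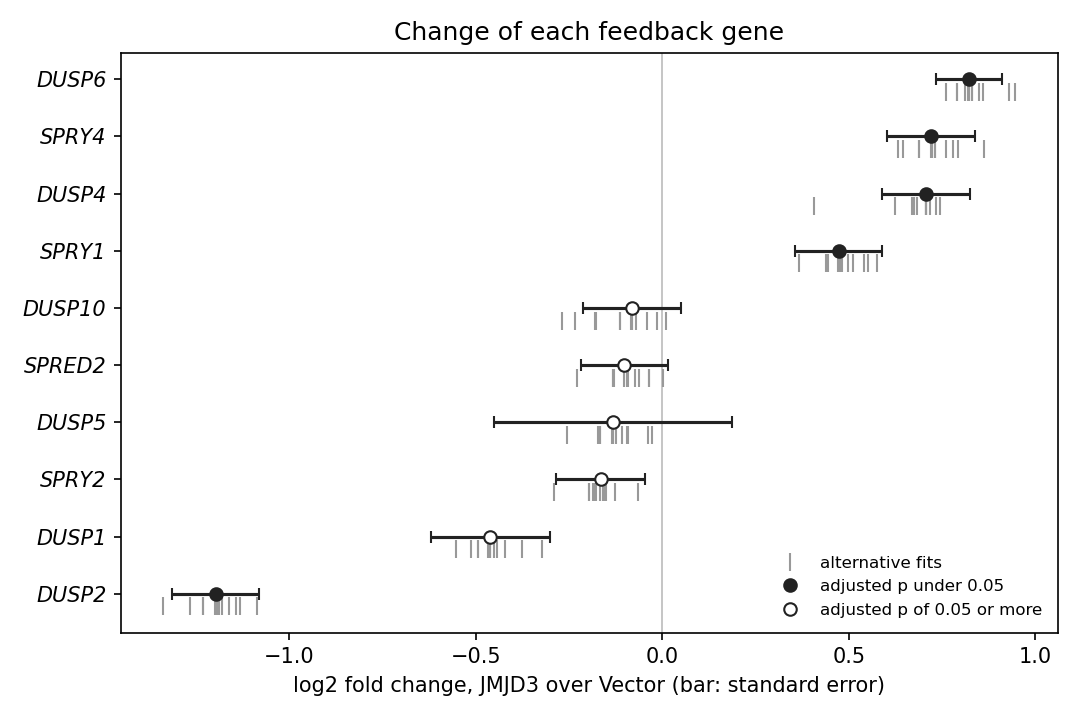
Log2 fold change of each feedback gene in JMJD3 over Vector cells (points, filled at an adjusted p under 0.05 and open otherwise) with its standard error (bars), and the values of the alternative fits (grey ticks). DUSP6, SPRY4, DUSP4 and SPRY1 lie right of 0 and DUSP2 left of it in all fits, while the ticks of DUSP10 and SPRED2 reach 0.

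Levels of different genes were compared as FPKM, which corrects for length. In Vector cells the order was led by DUSP2 (39.4 and 45.2 FPKM) and DUSP6 (40.1 and 33.6 FPKM), whose ranges overlapped. They were followed by SPRY2 at 23.6 FPKM on average, SPRED2 at 14.6 FPKM and SPRY1 at 12.1 FPKM, of which SPRED2 and SPRY1 overlapped. The lower levels were those of DUSP10 (6.19 FPKM), SPRY4 (3.71 FPKM), DUSP1 (2.25 FPKM), DUSP4 (1.26 FPKM) and DUSP5 (0.229 FPKM), which did not overlap. In JMJD3 cells DUSP6 led alone, at 70.5 and 71.0 FPKM. SPRY2 came next at 20.7 FPKM, then DUSP2 and SPRY1 at 18.6 and 17.9 FPKM, whose ranges overlapped, and SPRED2 at 14.1 FPKM. SPRY4 (6.84 FPKM) was now above DUSP10 (5.12 FPKM), DUSP4 (2.00 FPKM) above DUSP1 (1.60 FPKM), and DUSP5 was last at 0.205 FPKM.

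The summed level of the 10 genes was 149 and 137 FPKM in the Vector libraries and 157 and 158 FPKM in the JMJD3 libraries. The FPKM of all genes summed to 1344845 and 1445366 in Vector cells and to 1004715 and 1018094 in JMJD3 cells, so that per 10⁶ of the total the 10 genes held 111 and 95.0 against 157 and 155, and how far their sum moved depends on the scaling. DUSP6 made up 26.9% and 24.5% of the sum of the 10 genes in Vector cells and 44.8% and 44.9% in JMJD3 cells. DUSP2 made up 26.5% and 32.9% in Vector cells and 12.1% and 11.4% in JMJD3 cells. The leading phosphatase mRNAs were therefore about level with each other in Vector cells, while that of the cytoplasmic DUSP6 exceeded that of the nuclear DUSP2 in both JMJD3 libraries. No test was run on these shares.

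**Figure D3:**
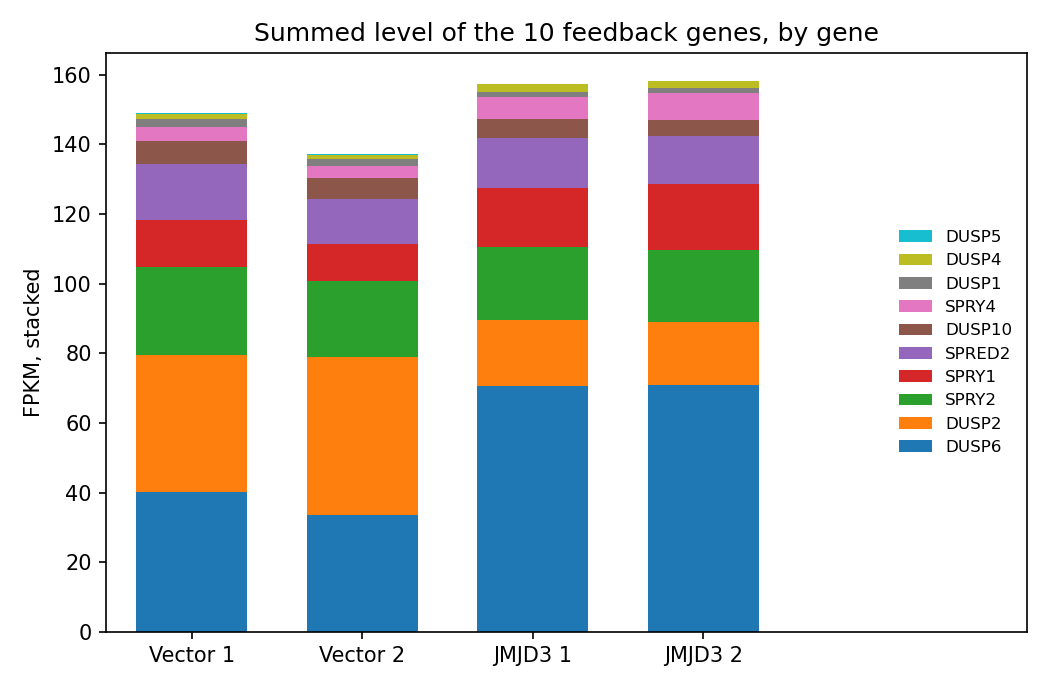
Level of the 10 feedback genes in each library, as FPKM stacked by gene. The bars reach 149, 137, 157 and 158 FPKM, the DUSP6 part grows from 40.1 and 33.6 FPKM in Vector cells to 70.5 and 71.0 FPKM in JMJD3 cells, and the DUSP2 part shrinks.

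DUSP2 had the largest called change of the members, and the 3 tested genes closest to it in log2 CPM, each gene centred on its own mean over the 4 libraries, were MORC4, MRPL46 and ECSIT, at Euclidean distances of 0.0420, 0.0457 and 0.0563. MRPL46, a mitochondrial ribosome protein gene, was at 63.2 and 76.1 CPM in Vector cells and 32.3 and 29.2 CPM in JMJD3 cells. ECSIT, which serves in assembly of mitochondrial complex I and in Toll-like receptor signals, was at 73.6 and 88.8 CPM and at 36.3 and 34.3 CPM. MORC4 had only 16 and 19 counts against 8 and 7 counts and did not pass (in edgeR's quasi-likelihood test, adjusted p = 0.0502), though it did with the size factors of DESeq2 (-1.22) and without Vector replicate 1 (-1.32). In all 3 of these genes, as in DUSP2, Vector replicate 2 was the highest library, and choosing them for closeness to DUSP2 selects for this order.

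The other genes of the pathway were read from 9 lists with 141 genes, of which 122 were tested. At an adjusted p under 0.05, 30 of them rose in JMJD3 cells and 19 fell, where 21.6% of all tested genes were higher and 19.1% lower, and their median log2 fold change was 0.07, where that of all tested genes was 0.04. The phosphatase list holds genes of other dual-specificity phosphatases and related proteins. Of these, DUSP9, an ERK phosphatase, and DUSP16, which favours JNK, were higher. DUSP9 had 15 and 29 counts against 62 and 58 counts (log2 fold change 1.47), and DUSP16 a log2 fold change of 0.84. The other 4 of 6 tested did not pass, with log2 fold changes of -0.16 (DUSP7), -0.30 (DUSP14), -0.29 (DUSP22) and -0.26 (STYXL1) that gave the list a median of -0.21, and of them 2 were lower with DESeq2 size factors or without Vector replicate 2 and 3 without Vector replicate 1. The values of DUSP9 and DUSP16 were smaller by limma on log2(FPKM + 1), at 0.47 and 0.54. None of the 3 other Sprouty and SPRED genes passed edgeR's quasi-likelihood test: SPRED3 had an adjusted p of 0.0591 at a log2 fold change of 0.77, SPRY3 one of 0.255 at 0.67 and SPRED1 one of 0.513 at 0.15. The value of SPRY3 was 1.06 without JMJD3 replicate 1, 0.12 without JMJD3 replicate 2 and 0.03 by limma on log2(FPKM + 1). Unadjusted p was 0.0254 for SPRED3, 0.17 for SPRY3 and 0.415 for SPRED1 in the same edgeR test. SPRED1 passed without Vector replicate 1 (0.40, adjusted p = 0.0215 from edgeR) and turned to -0.08 without Vector replicate 2 and to -0.20 by limma on log2(FPKM + 0.1). SPRED3 passed with the replicate block (0.76, adjusted p = 0.028 from edgeR) and without JMJD3 replicate 2 (1.04, adjusted p = 0.0244 from edgeR), but was at 0.45 without JMJD3 replicate 1 (adjusted p = 0.422 from edgeR), 0.59 without Vector replicate 1 and 0.42 by limma on log2(FPKM + 1).

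Genes for receptors that signal to RAS moved in both directions, 5 of 14 tested higher and 2 lower, with a median log2 fold change of 0.16. CSF1R, the receptor for macrophage colony-stimulating factor, rose from 4.94 and 3.85 CPM to 12.9 CPM in both JMJD3 libraries (log2 fold change 1.56), and FGFR1, ERBB2 and CSF2RB, the shared chain of the GM-CSF and IL-3 receptors, rose by 0.61, 0.90 and 0.61. CSF2RB did not pass without Vector replicate 2 (0.42) or without JMJD3 replicate 2 (0.48). FLT3, the receptor often mutated in acute myeloid leukemia, fell from 24.0 and 21.7 CPM to 10.6 and 11.5 CPM (log2 fold change -1.05), and FGFR4 by 0.95 on the log2 scale. The receptor PDGFRB (1.70) was also called but averaged under 0.5 FPKM in both groups and did not pass by limma on log2(FPKM + 1) (0.34) or log2(FPKM + 0.1) (1.29). Of 15 RAS genes, exchange factors that load RAS with GTP, and adaptors that link them to receptors, 3 were higher and 5 lower, with a median of -0.16. SOS2 (0.93), GAB2 (0.70) and RASGRF1 (0.71) were higher, and RASGRP3 (-1.06), RASGRP4 (-0.67), HRAS (-0.66) and RASGRP2 (-0.50) were lower, as was SHC1 (-0.26), chosen outside the rule for named genes after its value was seen, which did not pass without JMJD3 replicate 1 (-0.24) or JMJD3 replicate 2 (-0.29). RASGRP4 did not pass without Vector replicate 2 (-0.45), JMJD3 replicate 1 (-0.69) or JMJD3 replicate 2 (-0.65), nor RASGRP2 without JMJD3 replicate 2 (-0.45). By limma on log2(FPKM + 0.1), neither GAB2 (0.46), RASGRF1 (0.32) nor ERBB2 (0.70) passed.

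In the core of the cascade, 1 of 14 RAF, MEK, ERK and scaffold genes was higher and 3 were lower, with a median of -0.12, and without Vector replicate 1 the counts were 4 higher and 6 lower. PEBP1, an inhibitor of the cascade, fell from 654 and 719 CPM to 453 and 435 CPM (log2 fold change -0.63), and ARAF fell by 0.50 on the log2 scale, while the scaffold KSR1 rose by 0.46. ARAF did not pass without JMJD3 replicate 2 (-0.46), and KSR1 (0.53 and 0.38) did not without JMJD3 replicate 1 or 2. Of 14 JNK and p38 kinase genes, MAP3K5 rose by 0.54 and MAP2K7 and MAP2K3 fell by 0.46 and 0.42 on the log2 scale, with a list median of -0.05. MAP2K7 (-0.45 and -0.47) and MAP2K3 (-0.49 and -0.36) did not pass without JMJD3 replicate 1 or 2, and MAP3K5 did not without JMJD3 replicate 2 (0.43). Of 10 genes for kinases below ERK and p38, RPS6KA5 (0.56) and RPS6KA4 (0.29) were higher and MAPKAPK3 (-0.43) and MAPKAPK5 (-0.33) lower, with a median of 0.15. RPS6KA5 did not pass without JMJD3 replicate 2 (0.48), MAPKAPK3 (-0.45 and -0.42) and MAPKAPK5 (-0.34 and -0.33) without JMJD3 replicate 1 or 2, and RPS6KA4 without Vector replicate 1 (0.18) or JMJD3 replicate 1 or 2 (0.27 and 0.32).

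Among RAS GTPase activators and other inhibitors, 7 of 20 tested genes were higher and 3 lower, with a median log2 fold change of 0.20. CBLB, a ubiquitin ligase for receptors, rose from 1.08 and 1.15 CPM to 3 and 3.16 CPM (log2 fold change 1.46). ERRFI1, a feedback inhibitor of the EGF receptor family, rose from 7.96 and 6.63 CPM to 14.2 and 13.8 CPM (0.94). RASA4, a RAS GTPase activator, rose by 1.36, but near-identical copies of this gene share its reads, so that its value is uncertain. DOK2, an adaptor that restrains RAS in blood cells, rose by 1.12, which was 0.67 without Vector replicate 1 and 1.69 without Vector replicate 2. LRIG1, a receptor inhibitor that averaged under 0.5 FPKM in both groups, was lower by 1.07 on the log2 scale and did not pass without Vector replicate 1 (-0.93) or JMJD3 replicate 2 (-0.75). DOK3 fell by 0.54 and the ETS repressor ERF by 0.33 on the log2 scale, and ERF did not pass without JMJD3 replicate 1 (-0.38) or JMJD3 replicate 2 (-0.28) and was at -0.07 by limma on log2(FPKM + 0.1). DOK2 did not pass there (1.11) or with no filter on low counts, and CBLB was at 0.79 by limma on log2(FPKM + 1).

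The ERK output list holds genes used to read MAPK activity, immediate early genes and the transcription factor genes SRF, ELK1, ELK3 and ELK4. Whether each of them follows ERK activity in these cells was not tested. Of the 26 tested genes of the list, 9 were higher and 2 lower, with a median of 0.10. EGR1, an immediate early transcription factor, rose from 3.51 and 3.07 CPM to 30.5 and 31.5 CPM, a log2 fold change of 3.24 (standard error 0.12, in edgeR's quasi-likelihood test, adjusted p = 0.000207). PHLDA1 rose from 7.99 and 7.81 CPM to 19.2 and 18.2 CPM (log2 fold change 1.25), the ETS factor ELK3 from 15.7 and 12.6 CPM to 31.2 and 33.9 CPM (1.20), and KLF6 from 10.3 and 8.20 CPM to 17.8 and 20.4 CPM (1.05). MYC, at 1250 and 1255 CPM against 1025 and 1010 CPM, and SRF fell by 0.30 and 0.27 on the log2 scale. Neither MYC (-0.31 and -0.29) nor SRF (-0.27 and -0.28) passed without JMJD3 replicate 1 or 2. Of the 38 list genes named by rule, 20 did not pass in at least 1 alternative fit at an adjusted p under 0.05, while EGR1, PHLDA1, KLF6, ELK3, CSF1R, FLT3, FGFR1, FGFR4, CBLB, ERRFI1, DOK3, RASA4, PEBP1, SOS2, HRAS, RASGRP3, DUSP9 and DUSP16 passed in all of these fits.

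**Figure D4:**
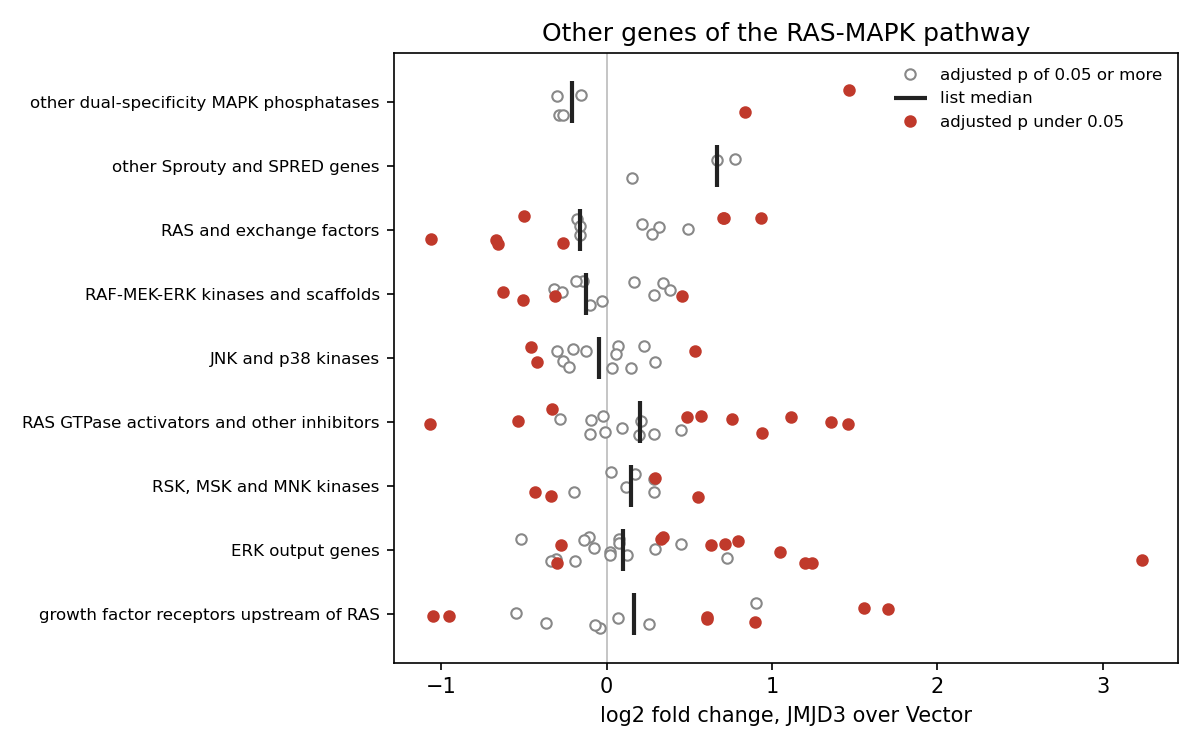
Log2 fold change in JMJD3 over Vector cells of the tested genes of each pathway list (points, filled at an adjusted p under 0.05), with the list median (line). Most points lie within 1 of 0, EGR1 lies farthest right at 3.24, and RASGRP3 (-1.06) and FLT3 (-1.05) are among those farthest left.

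CEBPB, the gene for the myeloid transcription factor C/EBPβ, was at 12.5 CPM in both Vector libraries and at 21.8 and 17.4 CPM in the JMJD3 libraries. It thus rose beside DUSP6, SPRY4, DUSP4 and SPRY1, with a log2 fold change of 0.65 (in edgeR's quasi-likelihood test, adjusted p = 0.0114) that did not pass without JMJD3 replicate 1 (0.48, adjusted p = 0.123 from edgeR). Whether it bears on the feedback genes was not tested here. In another leukemia cell line, the study lists SPRY4 among genes that JMJD3 raised and that C/EBPβ also targets.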

How the data were processed

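RNA of 4 NB4 libraries, 2 Vector and 2 JMJD3, was made into libraries with the TruSeq RNA kit, and the table deposited by the authors holds, for each gene in each library, an FPKM value and an estimated count. The submitters' processing notes name CASAVA 1.8, TopHat2 2.0.4, RSEM, edgeR and GRCh38, while the study's methods name STAR, hg19 and HTSeq-count and the series design BWA or Cufflinks, so that the build and counter behind the values are uncertain. Fractions occur in 98.4% of the deposited counts above 0, so counts were rounded. The labels name DMEM and Trizol, the methods RPMI-1640 and a column kit. Columns with the authors' own fold change, p-value, FDR and mean FPKM were not used.

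Genes were kept with filterByExpr (15246 of 60662), scaled with TMM and fitted with edgeR 4.0.16 in R 4.3.3 (glmQLFit, glmQLFTest) with no covariate, and the standard error is the size of the log2 fold change over the square root of F. The edgeR, DESeq2, limma on log2(FPKM + 1) and replicate block fits were run on simulated counts with known changes. Far fewer genes changed in the simulation than were called here, so that it checks the code and not the calls. Replicate numbers come from the library labels only, and the deviations of same-numbered libraries from their group means had a correlation of -0.15 across genes. Counts ranged from 34704909 to 40768225 per library, and RNA-seq counts without molecular identifiers are not independent molecules. Named genes were the members, KDM6B, CEBPB, up to 4 rises and 4 falls in each list among genes with an adjusted p under 0.05 and a mean of at least 0.5 FPKM in a group, and the 3 genes closest to DUSP2. Members and lists were chosen with earlier results of these data known. Alternatives were DESeq2 size factors, upper quartile scaling, DESeq2 1.42.0, no filter, limma 3.58.1 on log2(FPKM + 0.1) or log2(FPKM + 1), at least 10 counts in every library, a replicate block, each library left out, and 2-fold thresholds. Protein features, which had been planned, were not analysed here, and 1 list gene that the rule for named genes would name is not reported here.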

Additional observations from a re-analysis of the deposited data

How the results depend on the processing

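Over 13 alternative fits, the log2 fold changes of DUSP6, SPRY4, DUSP4, SPRY1 and DUSP2 kept their sign, and DUSP6 (0.76 to 0.95), SPRY4 (0.63 to 0.86) and DUSP2 (-1.34 to -1.09) passed in all of them. DUSP4 did not pass with limma on log2(FPKM + 0.1) (0.62), nor SPRY1 with no filter (0.47), where more genes are tested. DUSP1 passed with DESeq2 size factors (-0.49) and with the crossed pairing (-0.46), and did not pass in the other 11 of the 13 fits. With a library left out, where the lone library is assumed to vary like the others, the range was 0.37 to 0.55 for SPRY1, -0.29 to -0.0643 for SPRY2, -0.23 to 0.0022 for SPRED2 and -0.18 to 0.0110 for DUSP10. Otherwise the cause was not tested.

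With DESeq2 size factors 2 members were lower, with a library left out 1 to 3 lower and 3 or 4 higher. At least 2-fold with an adjusted p under 0.05, or with an unadjusted one, 0 members were higher, 10 list genes higher and 3 lower, and 1151 and 1264 of all genes higher and 430 and 508 lower. Limma on log2(FPKM + 1) and log2(FPKM + 0.1) called 18 and 16 list genes and 2046 and 2032 of all genes higher. With no filter 11 list genes were lower, and of all genes 1893 were higher and 1776 lower. Across the libraries left out, 6 to 33 list genes were lower, 1920 to 4343 of all genes higher and 1133 to 4183 lower. Counts per list moved by over 1.5 times, or to or from 0, in 101 of 270 cases, which include the 2-fold thresholds. Under every scaling, the median log2 fold change of all tested genes stayed within 0.1 of 0.

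The replicate block called 3267 genes higher and 2415 lower and left every member on its side of the threshold. Of the list genes named, ERF (-0.33), RPS6KA4 (0.29), MAPKAPK5 (-0.33), MYC (-0.30), SRF (-0.27) and SHC1 (-0.26) did not pass with it. SPRED3 (0.76) passed with it. A pairing with crossed numbers, added after seeing the data, called 4335 genes higher and 3772 lower, with 2 members lower. DUSP5, at 17 to 21 counts, and DUSP1, at 99 to 151, are the members that depth limits most.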

Other observations

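The ratio of the deposited count to the deposited FPKM of a gene depends on the length used for it in each library. This ratio was looked at after the data were seen, on the log2 scale and relative to the median gene of each library, for the 8 members and 10575 genes with at least 100 counts in every library. DUSP10 was at -0.05 and -0.08 in the Vector libraries and at 0.09 and 0.14 in the JMJD3 libraries, a shift of 0.18 where 18.6% of genes shifted at least as far in either direction. SPRY4 was at 1.01 and 1.08 in Vector cells and at 0.94 and 0.81 in JMJD3 cells, a shift of -0.17 (20.9% of genes at least as far), and DUSP6 at -0.29 and -0.17 against -0.38 and -0.35, a shift of -0.13 (26.6%). The groups did not overlap in 6 of the 8 members and in 48.5% of all these genes. Whether the transcripts of these genes differ was not tested, and shifts of this size are common among all genes.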
